A study of Mus musculus with 6 samples.

Results

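The genes described here are the 3 TGF-beta ligands, the 3 TGF-beta receptors and the 3 SMAD proteins that carry the TGF-beta signal to the nucleus: *Tgfb1*, *Tgfb2*, *Tgfb3*, *Tgfbr1*, *Tgfbr2*, *Tgfbr3*, *Smad2*, *Smad3* and *Smad4*. They were chosen by name, with earlier results of these data known, and all 9 were found among the 16300 genes of the deposited table. All 9 passed the filter on low values that left 16292 genes for testing.

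The libraries came from granulosa cells (GCs), the somatic cells of the ovarian follicle that enclose and nourish the oocyte, of wild type C57BL/6J mice aged 8 to 9 weeks. The groups compared were GCs kept in medium alone (control, n = 3) and GCs given 25 nM dihydrotestosterone (DHT, an androgen that is not converted to estrogen) for 24 h (n = 3). Both groups were collected at estrus by puncture of the ovary, cultured for 48 h with serum and starved of serum for 4 h before treatment. Each library pooled the GCs of 5 mice, so the spread between libraries is a spread between pools. The labels call the extracted material whole ovary and describe the DHT treatment for every sample. The groups were therefore read from the separate characteristic that names control or DHT.

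TGF-beta ligands are secreted in a latent form that binds to proteins of the extracellular matrix. Once released, a ligand joins the type II receptor (encoded by *Tgfbr2*) to the type I receptor (*Tgfbr1*), which phosphorylates SMAD2 and SMAD3, and these enter the nucleus together with SMAD4. Betaglycan, the type III receptor encoded by *Tgfbr3*, has no kinase of its own, presents ligands to the other receptors and also binds inhibin, a hormone made by GCs. In the ovary this pathway is known for its part in the growth and the steroid output of GCs.

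After DHT treatment, betaglycan mRNA was higher and *Tgfb1* mRNA was modestly higher, while the other 7 genes did not pass the test. *Tgfbr3* rose 1.58-fold and *Tgfb1* rose 1.20-fold on the fitted scale, each with all 3 DHT libraries above all 3 control libraries. The 2 genes with a rise compare with 6.52% of all genes tested that were higher after DHT at an adjusted p of at most 0.05. None of the 9 genes was lower in the same limma test, against 4.66% of all genes, and at an unadjusted p under 0.05 there were 3 higher and 1 lower, where 13.4% of all genes were higher and 11.8% lower. None passed the second threshold that the study applied, an absolute log2 fold change above 1, which 1.31% of all genes passed together with the adjusted p. The median log2 fold change of the 9 genes was 0.07, and that of all genes tested was -0.0052.

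Of the 9 genes, 5 had an entry among RefSeq promoters (GRCm38.p6), with 6 entries in all. The 250 bases before the start are shown for *Tgfb1*, the gene with a rise that had an entry, and for *Tgfb2*, the ligand whose log2 fold change was closest to it. *Tgfb1* lies on the plus strand, with the window at chr7:25686752-25687001, and *Tgfb2* on the minus strand, with the window at chr1:186705990-186706239. Both are written 5′ to 3′ along the gene's strand, and the capitals mark the SP1 box GGGCGG, the SMAD box CAGACA and the TATA box TATAAA, each searched on both strands.
Tgfb1: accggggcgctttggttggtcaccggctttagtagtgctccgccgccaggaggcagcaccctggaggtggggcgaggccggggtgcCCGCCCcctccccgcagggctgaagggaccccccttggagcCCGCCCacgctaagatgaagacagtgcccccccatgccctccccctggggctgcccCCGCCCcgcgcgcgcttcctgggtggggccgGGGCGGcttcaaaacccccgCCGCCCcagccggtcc
Tgfb2: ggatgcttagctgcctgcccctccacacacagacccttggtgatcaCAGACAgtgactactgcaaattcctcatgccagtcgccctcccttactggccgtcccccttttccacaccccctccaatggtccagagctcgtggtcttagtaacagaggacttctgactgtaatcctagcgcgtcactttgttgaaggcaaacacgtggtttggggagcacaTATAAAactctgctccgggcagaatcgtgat
The *Tgfb1* window held 5 SP1 boxes, no TATA box and no SMAD box, with a GC content of 75.2%. The *Tgfb2* window held 1 TATA box, 1 SMAD box and no SP1 box, with a GC content of 53.6%, near the median of 52.4% over all promoters. Of 32851 promoters of the same length, 32.7% held an SP1 box, 17.1% a SMAD box and 12.4% a TATA box. The letters TGTTCT, one arm of the androgen response element, or their reverse complement were in none of the 6 windows and in 16.1% of all promoters. These are matches of letters in a short window and say nothing of binding.

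The reads counted on genes numbered between 38486526 and 41928585 per control library and between 36111177 and 39777305 per DHT library, as estimated from the smallest steps between the deposited values. The step was less certain in control replicate 1, where it lay close to 1, and in control replicate 2 and DHT replicate 1, where no gene had a single read. Of 12 listed GC markers, 11 were analysed here, without *Cyp19a1*. The cells carried GC markers, with a sum of 218520 to 233558 normalized counts over these 11 markers for control and 237152 to 253213 for DHT. Of these markers, 2 passed the test as higher, *Cyp11a1* and *Hsd17b1*, and 2 as lower, *Inha* and *Foxl2* (against 6.52% and 4.66% of all genes), so the sum joins markers that went opposite ways. *Cyp11a1*, an enzyme of steroid synthesis with the highest counts of the list, had a mean of 87825 for control and 123349 for DHT, and *Inha*, an inhibin subunit, had 54181 and 35515. As sums, markers of other cells were much scarcer. Single markers did not all follow this. The GC markers *Fshr* (mean 150 for control) and *Amh* (130) lay below the surface epithelium markers *Krt8* (2403) and *Krt18* (1277). Of 8 listed markers each, 6 theca and stroma (without *Cyp17a1* and *Insl3*), 4 endothelial and 5 leukocyte markers were analysed. The sums of 6 theca and stroma markers were 4107 to 4369 for control and 3617 to 3861 for DHT, where every library was lower, although none of the 6 passed the test on its own. Most of this sum came from *Ptch1* (mean 2543 for control and 2218 for DHT) and *Nr2f2* (1485 and 1322). For *Pdgfra*, *Tcf21*, *Lum* and *Gli1* the groups overlapped, and *Gli1* had a higher mean after DHT (18.6 for control and 25.7 for DHT). The sums for 8 surface epithelium markers were 4091 to 4724 and 3238 to 4365, for 5 leukocyte markers 504 to 592 and 409 to 647, and for 4 endothelial markers 150 to 179 and 141 to 199. Of the leukocyte markers, *Csf1r*, a receptor of macrophages, named after its values were seen, had 115, 92.9 and 98.2 normalized counts for control and 71.4, 62.2 and 60.9 for DHT. It was lower in every DHT library (log2 fold change -0.64, limma adjusted p = 0.027). The leukocyte marker *Ptprc* went the other way, with 5.94, 8.36 and 11.1 normalized counts for control and 15.7, 12 and 15.2 for DHT, and did not pass the test (limma, adjusted p = 0.215). The 8 oocyte markers summed to 364 to 854 for control and 117 to 624 for DHT. Control replicate 1 held the highest oocyte sum, 854 against 364 and 370 in the other controls. DHT replicate 1 held the lowest theca and stroma, endothelial and surface epithelium sums. DHT replicate 2 had the lowest oocyte sum, and *Zp3* and *Oosp1*, both made by oocytes, were at 0 there. Without DHT replicate 2, the log2 fold changes were 0.63 for *Tgfbr3* (limma, adjusted p = 0.00639) and 0.26 for *Tgfb1* (0.0967). Without DHT replicate 1, they were 0.73 for *Tgfbr3* (limma, adjusted p = 0.00103) and 0.30 for *Tgfb1* (0.0386). The part of the theca and stroma, endothelial, surface epithelium, leukocyte or oocyte markers in the results was not tested. In such bulk samples fewer cells of a type and less RNA per cell cannot be told apart.

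Among the ligands, *Tgfb1* (ENSMUSG00000002603, chr7:25687002-25705077, plus strand), the form made most widely in the body, had 1453, 1705 and 1606 normalized counts in control replicates 1, 2 and 3. After DHT it had 1829, 1933 and 1967. The lowest DHT library was above the highest control library, so the groups did not overlap. The mean went from 1588 ± 127 to 1909 ± 71.8 normalized counts (SD, n = 3 each). This is a log2 fold change of 0.27 (standard error 0.06, limma adjusted p = 0.0253, 95% interval 0.13 to 0.41). Every DHT library was above every control library for 15.9% of all genes tested. The call was lost, at an adjusted p between 0.0507 and 0.104, without control replicate 1 (log2 fold change 0.21), without DHT replicate 2 (0.26) or without DHT replicate 3 (0.25), and with no intensity trend in the model (adjusted p = 0.107).

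*Tgfb2* (chr1:186622792-186705989, minus strand), the ligand with the widest spread among control libraries, had 1176, 1690 and 1315 normalized counts in the control libraries and 1655, 1641 and 1696 in the DHT libraries. Control replicate 2 reached the level of the DHT libraries, and the groups overlapped. The means were 1394 ± 266 and 1664 ± 28.5 normalized counts, and the log2 fold change of 0.27 did not pass the test (limma, adjusted p = 0.164, 95% interval 0.02 to 0.52). Without control replicate 2 it was 0.42 with an adjusted p of 0.00571, and without control replicate 1 it was 0.16 with an adjusted p of 0.374.

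*Tgfb3* (chr12:86056745-86079041, minus strand), which completes the ligand family, had 1160, 1268 and 1342 normalized counts in the control libraries and 1417, 1279 and 1269 in the DHT libraries. The groups lay over each other, with the highest value in DHT replicate 1. With a log2 fold change of 0.07 it did not pass the test (limma, adjusted p = 0.553, 95% interval -0.08 to 0.23). It was 0.017 without control replicate 1, 0.022 without DHT replicate 1 and 0.12 without control replicate 3. The exons of *Tgfb2* and of *Tgfb3* overlap genes annotated on the opposite strand, so reads of these genes may not be told apart where the counting did not use strand.

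**Figure D1:**
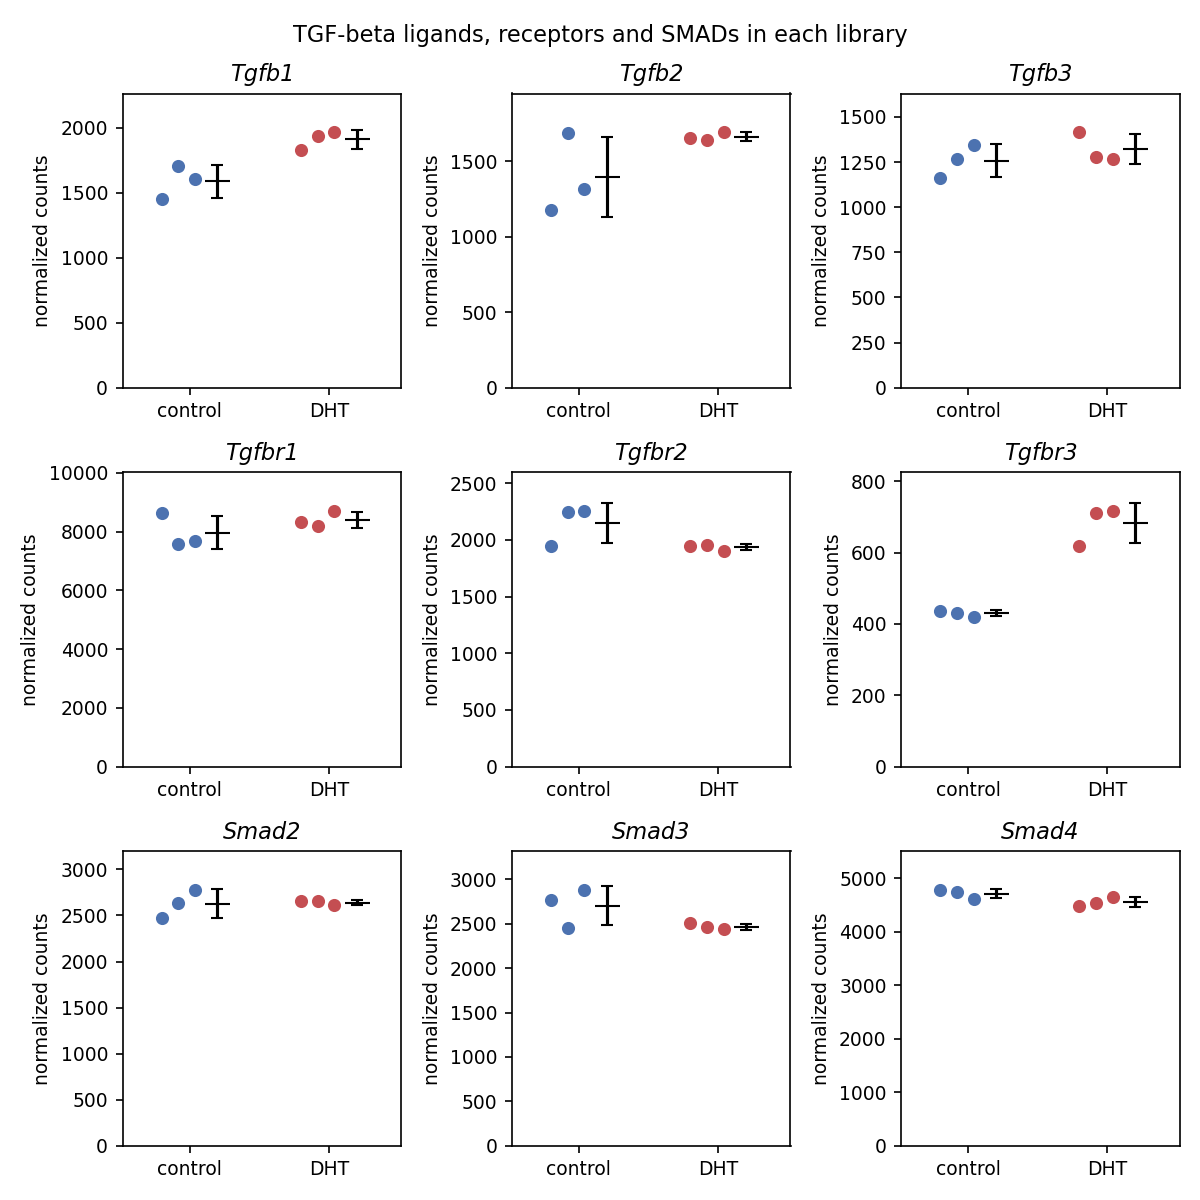
Normalized counts of each gene in the 3 control and 3 DHT libraries (points, vertical axis from 0), with the group mean and SD as the black bar. *Tgfb1* and *Tgfbr3* are the 2 genes whose groups do not overlap, and the other 7 overlap.

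Among the receptors, *Tgfbr3* (ENSMUSG00000029287, chr5:107106570-107289629, minus strand), which encodes betaglycan, had 437, 432 and 421 normalized counts in the control libraries. The DHT libraries had 617, 711 and 717. The control values lay close together, and each DHT library was well above all of them. The means were 430 ± 8.57 and 682 ± 55.9 normalized counts (SD, n = 3 each), a difference of 58.6% of the control mean. In log2 terms it rose by 0.66 (standard error 0.07, limma adjusted p = 0.000716, 95% interval 0.49 to 0.83). By p-value it ranked at place 211 among the 16292 genes. Its call held in all 14 alternatives, with a log2 fold change between 0.62 and 0.73, and leaving out any single library did not remove it. Its exons overlap the annotated gene *Gm43422* on the same strand.

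*Tgfbr1* (chr4:47353222-47414931, plus strand), the type I receptor kinase, had 8616, 7576 and 7691 normalized counts in the control libraries and 8310, 8196 and 8704 in the DHT libraries. Control replicate 1 lay among the DHT libraries. Its log2 fold change was 0.08 (limma, adjusted p = 0.398, 95% interval -0.04 to 0.20). It was 0.14 without control replicate 1 (adjusted p = 0.0812) and 0.045 without control replicate 2.

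*Tgfbr2* (chr9:116084293-116175360, minus strand), the type II receptor kinase, had 1946, 2242 and 2256 normalized counts in the control libraries and 1944, 1954 and 1904 in the DHT libraries. The other two control libraries were above every DHT library, but control replicate 1 lay at the DHT level. The means were 2148 ± 175 and 1934 ± 26.2 normalized counts, with a log2 fold change of -0.15 that did not pass the test (limma, adjusted p = 0.157, 95% interval -0.28 to -0.01). Without control replicate 1 it was -0.22 with an adjusted p of 0.0168, and without control replicate 3 it was -0.11 with an adjusted p of 0.295.

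**Figure D2:**
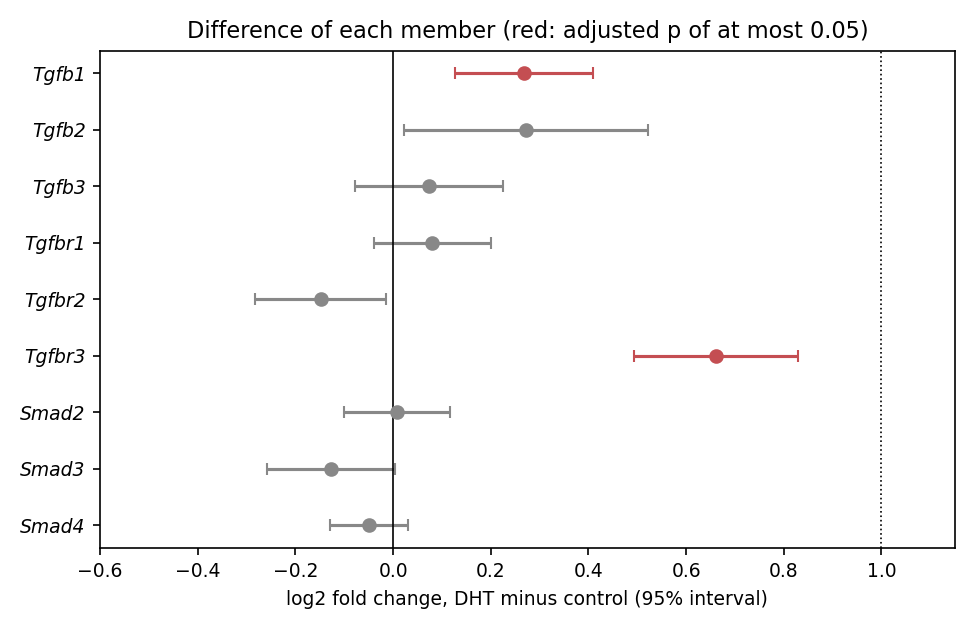
Log2 fold change of each gene after DHT (horizontal axis, DHT minus control, points) with its 95% interval, red where the adjusted p was at most 0.05 and grey elsewhere. The dotted line marks the log2 fold change of 1, and no interval reaches it: the highest upper bound is 0.83, for *Tgfbr3*.

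The SMADs lay close together between the groups. *Smad2* (chr18:76241580-76310963, plus strand), a SMAD that the type I receptor phosphorylates, had 2471, 2637 and 2778 normalized counts in the control libraries and 2655, 2656 and 2610 in the DHT libraries. All 3 DHT values fell inside the control range. Its log2 fold change was 0.0079 (limma, adjusted p = 0.941, 95% interval -0.10 to 0.12).

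*Smad3* (chr9:63646767-63757994, minus strand), the other receptor-regulated SMAD of this branch, had 2768, 2456 and 2882 normalized counts in the control libraries and 2503, 2466 and 2437 in the DHT libraries. Control replicate 2 was at the DHT level and the other two control libraries were above it. The means were 2702 ± 221 and 2469 ± 33.3 normalized counts. The log2 fold change of -0.13 did not pass the test (limma, adjusted p = 0.215, 95% interval -0.26 to 0.0043). Without control replicate 2 it was -0.19 with an adjusted p of 0.0334, and without control replicate 3 it was -0.08 with an adjusted p of 0.412.

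*Smad4* (chr18:73639009-73703780, minus strand), the common partner of the receptor-regulated SMADs, had 4781, 4733 and 4614 normalized counts in the control libraries and 4471, 4539 and 4650 in the DHT libraries. DHT replicate 3 was above control replicate 3, so the groups overlapped. It had a log2 fold change of -0.05 (limma, adjusted p = 0.442, 95% interval -0.13 to 0.03). None of the 9 genes had every DHT library below every control library, an order found for 14.7% of all genes tested.

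**Figure D3:**
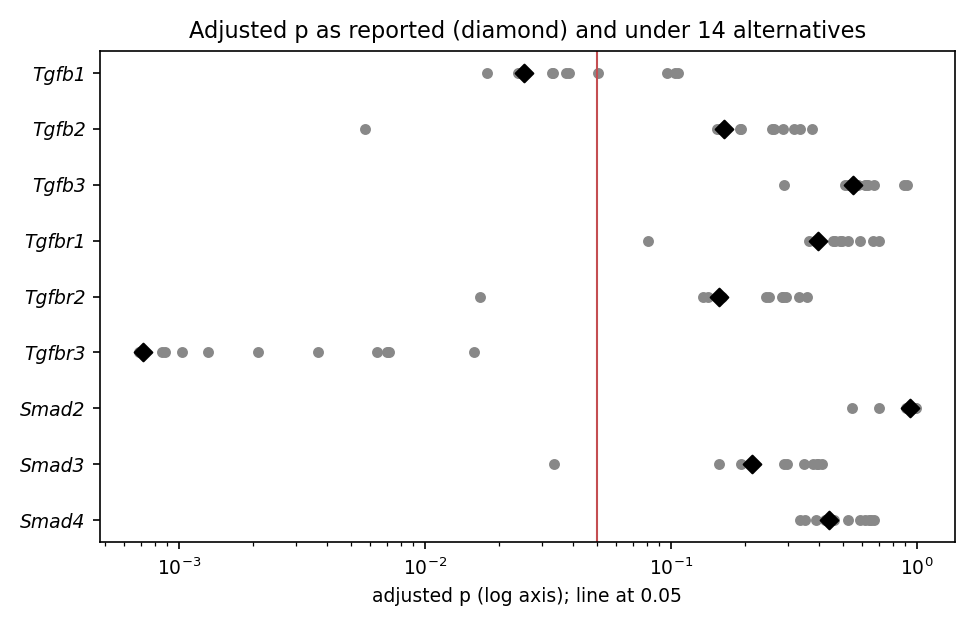
Adjusted p of each gene (horizontal log axis) as reported (black diamond) and under 14 alternatives (grey points: other pseudocounts, filters, scalings and variance models, the replicate block, and each library left out), with a line at 0.05. Every point of *Tgfbr3* is left of the line, up to 0.0158, and the points of *Tgfb1* lie on both sides, up to 0.107.

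To compare the genes with each other, normalized counts were divided by the exon length of each gene in kilobases. In control GCs, *Smad4* (1269 ± 23.1 normalized counts per kb) and *Tgfbr1* (1218 ± 87.2) had the highest levels, and their libraries overlapped. *Smad3* followed with 488 ± 39.8, then *Tgfb3* with 371 ± 27.2. The levels of *Tgfb1* (315 ± 25.2) and *Smad2* (299 ± 17.5) overlapped, as did those of *Tgfbr2* (262 ± 21.4) and *Tgfb2* (241 ± 45.9). *Tgfbr3* had the lowest level, 65.7 ± 1.31 normalized counts per kb.

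After DHT the order was nearly the same. *Tgfbr1* had 1286 ± 40.8 normalized counts per kb and *Smad4* had 1227 ± 24.4. *Tgfb1*, at 379 ± 14.2, came to overlap *Tgfb3*, at 391 ± 24.5. *Tgfb2*, at 287 ± 4.92, stood above *Tgfbr2*, at 236 ± 3.20, and *Tgfbr3* was still the lowest at 104 ± 8.55. The order depends on the length used. Per length of the longest transcript, the control level of *Tgfb1* was 617 ± 49.3 and took place 3, and per coding length *Tgfbr1* led with 5276 ± 378. *Tgfbr3* had the lowest level under all 3 lengths, in both groups.

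**Figure D4:**
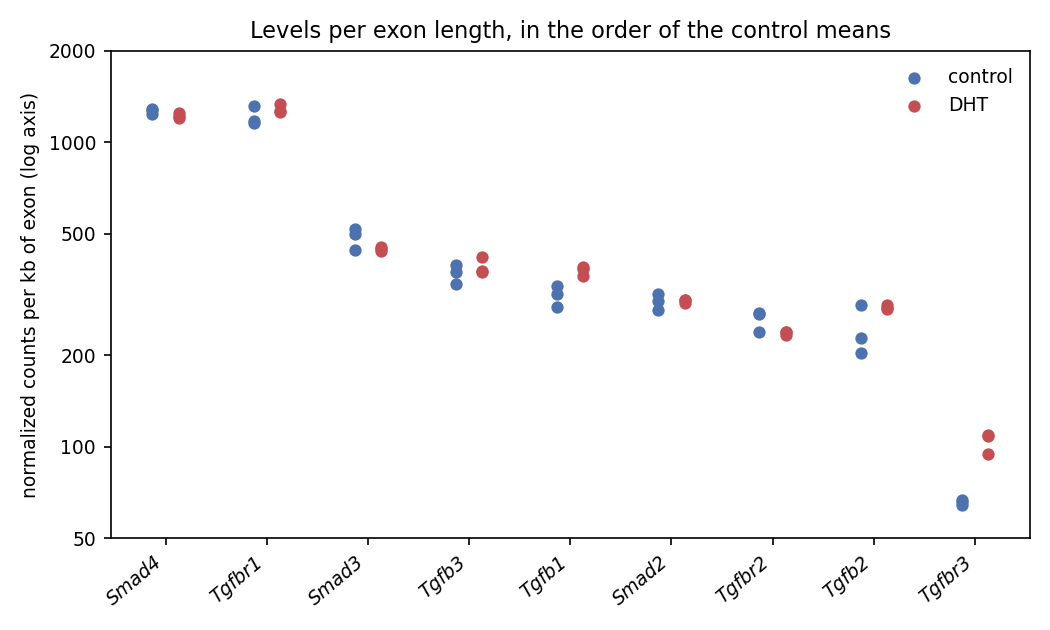
Normalized counts per kb of exon (vertical log axis) of each gene in the control and DHT libraries (points, n = 3 each), ordered by the control mean. *Smad4* and *Tgfbr1* lie above 1000 in every library, and *Tgfbr3* is lowest, with 64.3 to 66.8 in the control and 94.3 to 110 in the DHT libraries.

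The balance among the ligands was compared within each library, as the share of each in the sum of the 3 ligand levels per kb. *Tgfb1* made up 34.0% ± 0.48 of the sum in control GCs and 35.9% ± 1.62 after DHT. *Tgfb2* made up 25.8% ± 2.79 and 27.2% ± 0.46, and *Tgfb3* made up 40.2% ± 2.54 and 37.0% ± 2.01 (SD, n = 3 each). The shares depend on the length used. In control GCs the mean level of *Tgfb1* was 48.9% of the sum of the ligand means per longest transcript and 39.6% per coding length, and that of *Tgfb3* was 29.4% and 29.7%, so *Tgfb3* had the largest share only per exon length. The groups overlapped for each share per exon length, and the exact permutation test gave two-sided p-values of 0.2 for *Tgfb1*, 0.4 for *Tgfb2* and 0.2 for *Tgfb3*. The level of *Tgfbr2* relative to *Tgfbr1* was 0.215 in control GCs and 0.184 after DHT (log2 difference -0.23, exact permutation p = 0.3, and -0.36 without control replicate 1). The level of *Smad3* relative to *Smad2* was 1.63 and 1.48 (log2 difference -0.14, exact permutation p = 0.3). Without control replicate 1 this difference was -0.072, and without control replicate 2 it was -0.21. With a library left out, the difference in share ranged from 1.34 to 2.78 percentage points for *Tgfb1*, from 0.49 to 2.96 for *Tgfb2* and from -4.63 to -2.23 for *Tgfb3*. Adjusted over the 5 measures, these exact permutation p-values were 0.375 to 0.4. With 3 libraries against 3, this test cannot give a p below 0.1.

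The genes whose profile over the 6 libraries was most like that of *Tgfbr3* were sought among 11632 genes with a mean of at least 100. Likeness was the root mean square difference of log2 values centred on each gene's mean, which had a median of 0.35 over these genes. The 5 closest were *Pank1* (0.046), *Tspan15* (0.052), *Shb* (0.056), *Tlcd1* (0.066) and *Hsd3b1* (0.067). *Pank1*, a kinase of coenzyme A synthesis, had 1266, 1140 and 1168 normalized counts in the control libraries and 1710, 1942 and 2071 in the DHT libraries. *Hsd3b1*, which encodes an enzyme of progesterone synthesis, had 80918, 79142 and 72329 in the control libraries and 113288, 115385 and 124520 in the DHT libraries. In both, as in *Tgfbr3*, every DHT library was above every control library and DHT replicate 1 was the lowest of the DHT libraries. Both genes were picked for their likeness over these libraries, so this shared order is not a separate result. *Hsd3b1* belongs to a family of similar genes between which reads could be split. These are descriptions over 6 libraries that share the same groups.

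The lists of other TGF-beta pathway genes were chosen with earlier results of these data known, so their shares are descriptions only. Of 65 such genes, 62 were in the table and passed the filter (*Ccn2* under its older name *Ctgf*), and *Itgb6*, *Foxh1* and *Postn* were not analysed here. After DHT, 7 were higher (11.3%, against 6.52% of all genes) and 5 lower (8.06%, against 4.66%), and 50 did not pass the test. The count of higher genes was 3 with no intensity trend, 4 without DHT replicate 2 or without DHT replicate 3, and 10 without control replicate 3. The 6.52% holds for the fit as reported, and the shares of all genes under these settings are not given here. The median log2 fold change of the 62 genes was 0.03. Of the 62 genes, 2, *Tgfbi* and *Nox4*, passed both the adjusted p and the log2 fold change of 1, as did 1.31% of all genes tested.

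The genes that store and activate the ligands counted 1 lower gene (7.14%, against 4.66% of all genes) and none higher (against 6.52%) among 14 (limma, with 0 higher and 4 lower at an unadjusted p under 0.05, against 13.4% and 11.8% of all genes), with a median log2 fold change of -0.0076. *Fbn1*, which encodes fibrillin 1 of the microfibrils that hold latent TGF-beta, had 2697, 2723 and 2676 normalized counts in the control libraries and 2092, 2229 and 1963 in the DHT libraries. The groups were well apart, with a log2 fold change of -0.37 (limma, adjusted p = 0.00197). Among 6 co-receptors and receptor partners other than betaglycan, none passed the limma test in either direction, with 2 higher and none lower at an unadjusted p under 0.05, against the same shares of all genes, and a median log2 fold change of 0.05.

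Of 7 SMAD partners and co-activators, 2 were higher (28.6%, against 6.52% of all genes) and none lower (against 4.66%, limma, with 0 lower at an unadjusted p under 0.05, against 11.8%), with a median log2 fold change of 0.04. Both of the higher genes encode membrane proteins that bind receptor-regulated SMADs and are known to restrain the signal, unlike the co-activators of the list. *Pmepa1* had 1053, 1049 and 1146 normalized counts in the control libraries and 1840, 1715 and 1891 in the DHT libraries. It was far above the controls in each DHT library, and its log2 fold change of 0.75 had an adjusted p of 0.000109 (limma), the smallest among the 62 genes. *Ldlrad4*, a relative of *Pmepa1*, had 295, 322 and 338 normalized counts in the control libraries and 404, 401 and 460 in the DHT libraries (log2 fold change 0.41, limma adjusted p = 0.0199). Its call was lost when control replicate 1 (log2 fold change 0.35), control replicate 2 (0.41), DHT replicate 2 (0.44) or DHT replicate 3 (0.34) was left out, and with no intensity trend (adjusted p = 0.0589).

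Inhibitors and ubiquitin ligases went both ways, with 2 higher (16.7%, against 6.52% of all genes) and 2 lower (16.7%, against 4.66%) of 12 and a median log2 fold change of -0.0072. *Smad6*, an inhibitory SMAD best known for the BMP branch, had 2207, 1997 and 2147 normalized counts in the control libraries and 1305, 1393 and 1337 in the DHT libraries. Every DHT library was clearly lower, with a log2 fold change of -0.65 (limma, adjusted p = 0.000128). *Smad7*, the inhibitory SMAD that targets the type I receptor, had 3565, 3168 and 3774 normalized counts in the control libraries and 2946, 3121 and 2765 in the DHT libraries. The groups nearly met, and its log2 fold change of -0.25 lay at the threshold (limma, adjusted p = 0.0497). The call was lost in 8 of 14 alternatives, among them leaving out any library other than control replicate 2, with an adjusted p of up to 0.176.

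The corepressor gene *Ski*, whose product binds SMADs on DNA, had 4082, 4021 and 4068 normalized counts in the control libraries and 4397, 4633 and 4530 in the DHT libraries. The difference was small and the groups were apart, with a log2 fold change of 0.16 (limma, adjusted p = 0.0242). It was lost without control replicate 2 (0.15), DHT replicate 2 (0.14) or DHT replicate 3 (0.15), at adjusted p-values up to 0.12, and with no intensity trend (adjusted p = 0.0961). Its relative *Skil*, which encodes SnoN, had 7359, 7122 and 10210 normalized counts in the control libraries and 11569, 11277 and 11245 in the DHT libraries. Control replicate 3 lay near the DHT libraries and apart from the other two controls. The log2 fold change was 0.48 (limma, adjusted p = 0.0279), and 0.65 without control replicate 3 (adjusted p = 4.21e-05). The call of *Skil* was lost without any one of the other 5 libraries, at adjusted p-values of 0.0767 to 0.0937, and with no intensity trend (0.136).

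Of the 3 SMADs of the BMP branch, 1 was lower (against 4.66% of all genes) and none higher (against 6.52%, limma, with 1 higher at an unadjusted p under 0.05, against 13.4%), with a median log2 fold change of 0.01. *Smad9*, a receptor-regulated SMAD of that branch, had 709, 673 and 663 normalized counts in the control libraries and 426, 456 and 378 in the DHT libraries. The DHT libraries lay well below, with a log2 fold change of -0.70 (limma, adjusted p = 0.00079).

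Of 20 target genes, 3 were higher (15.0%, against 6.52% of all genes) and 1 lower (5.0%, against 4.66%), and their median log2 fold change was 0.07. *Tgfbi*, a matrix protein named for its induction by TGF-beta, had 73.2, 98.5 and 119 normalized counts in the control libraries and 242, 237 and 296 in the DHT libraries. Every DHT library was well above every control library, with a log2 fold change of 1.43 (limma, adjusted p = 0.00135). *Nox4*, an NADPH oxidase, had 467, 611 and 428 normalized counts in the control libraries and 1031, 1077 and 1164 in the DHT libraries (log2 fold change 1.13, limma adjusted p = 0.000548). Each of these DHT libraries was far above every control library.

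*Acta2*, which encodes smooth muscle actin, had 4293, 6425 and 5479 normalized counts in the control libraries and 8217, 9086 and 9735 in the DHT libraries. The controls were widely spread but below every DHT library, with a log2 fold change of 0.76 (limma, adjusted p = 0.00564, and 0.0664 with no intensity trend). *Fn1*, which encodes the matrix protein fibronectin, had 9304, 12092 and 10680 normalized counts in the control libraries and 6263, 6408 and 5656 in the DHT libraries. It went the other way, with a log2 fold change of -0.80 (limma, adjusted p = 0.000622). The other 16 target genes did not pass the test, with log2 fold changes from -0.87 to 0.48.

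**Figure D5:**
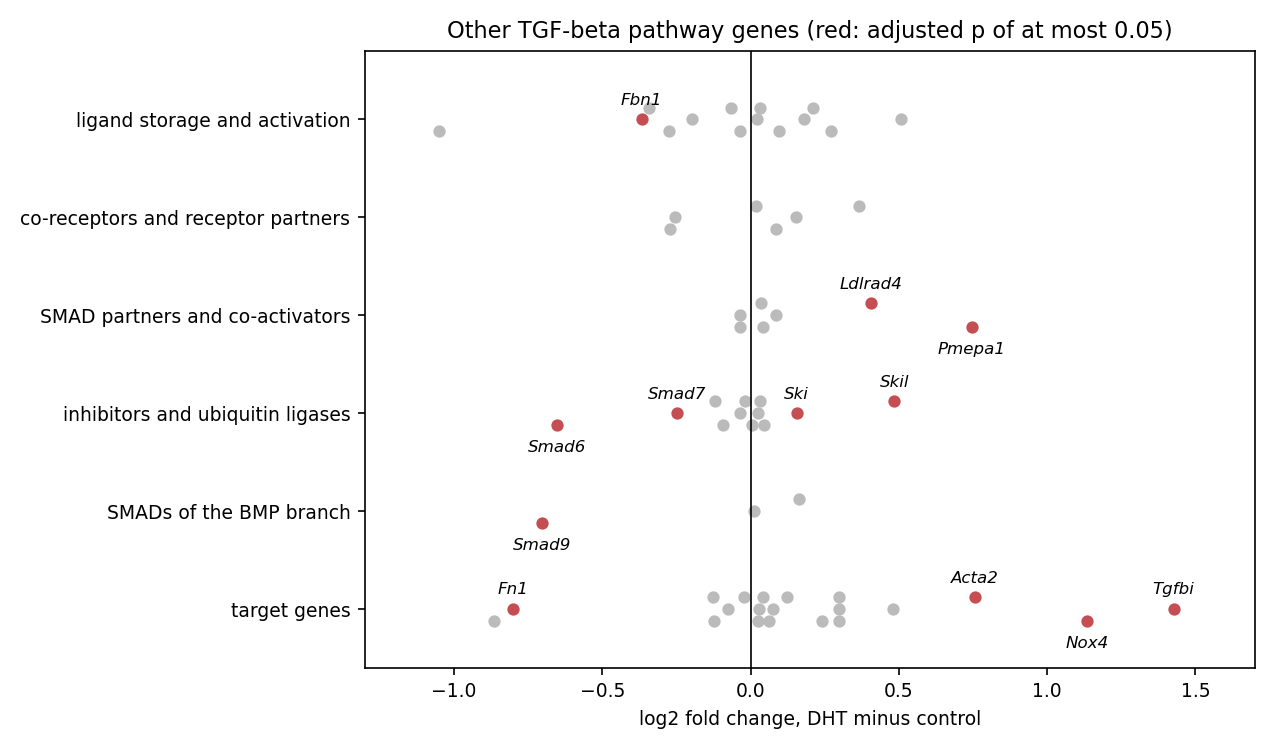
Log2 fold change after DHT (horizontal axis, DHT minus control) of the 62 other pathway genes, 1 point each, by list, spread vertically only to keep points apart. Red points with names passed an adjusted p of 0.05, 7 to the right of zero and 5 to the left, from *Fn1* at -0.80 to *Tgfbi* at 1.43.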

How the data were processed

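RNA-seq of 6 libraries was analysed, with paired reads of 150 bases. Per the labels and methods, the authors used Trimmomatic 0.36 for trimming, STAR 2.5.2b for mapping to GRCm38, and featureCounts of Subread 1.5.2 to count uniquely mapped reads in exons. The strand setting is not given in the sources used here. The signal values that the authors deposited are normalized counts, that is, reads divided by a DESeq2 size factor. Reads on genes were estimated from the step of these values. With the step found here, 100% of values were whole multiples within 0.01, but a second check found the step only in control replicate 3 and DHT replicates 2 and 3, so no count test was run. The authors' fold changes and p-values, and their table of selected genes, were not used.

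Genes whose mean was 10 or more were tested on log2(value + 1), which understates the change of scarce genes. The model was limma 3.58.1 (R 4.3.3), its variance prior following the mean intensity, and p-values were adjusted by Benjamini-Hochberg with a threshold of 0.05. Intervals are not adjusted for the number of genes. Fits were tested on simulated data. Positions and exon lengths came from GENCODE M21 (GRCm38). Other settings tried were pseudocounts of 0.5 and 8, no filter, a mean of 50 or more, quantile and TMM scaling, no intensity trend, the replicate number as a block, other gene lengths, and each library left out. The members and lists were chosen with earlier results of these data known. All 9 members were named, every listed pathway gene that passed, and the 5 genes most like *Tgfbr3*.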

Additional observations from a re-analysis of the deposited data

How the results depend on the processing

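The number of the 9 genes called higher was 2 as reported, 1 with no intensity trend and 1 to 3 with a library left out, and the number called lower was 0 as reported and 0 to 1 with a library left out. The number of other pathway genes called higher was 7 as reported, 3 with no intensity trend and 4 to 10 with a library left out. The shares of all genes called under these settings are not given here, so these counts have no background beside them. With no intensity trend the adjusted p was 0.107 for *Tgfb1*, 0.0664 for *Acta2*, 0.0589 for *Ldlrad4*, 0.0961 for *Ski*, 0.136 for *Skil* and 0.167 for *Smad7*. *Smad7* had an adjusted p of 0.0502 with a pseudocount of 0.5. The log2 fold change of *Smad2* changed sign, to -0.0012 with quantile normalization and to -0.036 without control replicate 1, with values up to 0.049 without other libraries. The cause of these changes was not tested. The scalings moved the median of all genes to -0.0135 at most. Same-numbered libraries deviated from their group means with correlations of 0.0058, 0.067 and -0.24, and 1 of 6 libraries correlated best with its own number, so the numbers were not taken as pairs. With the replicate block the genes called numbered 990, against 1823 without it, and *Tgfbr3* (adjusted p = 0.00716) and *Tgfb1* (0.0375) were again the 2 genes of the 9 called, while *Ski* (0.104) and *Smad7* (0.14) did not pass the test. Count tests with edgeR and DESeq2 were not run. With 3 libraries in each group, small differences such as those of *Tgfb2*, *Tgfbr2* and *Smad3* turn on single control libraries.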
